A study of Arabidopsis thaliana with 2 samples.

Results

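The genes described are the 10 type-A response regulators of Arabidopsis thaliana, ARR3 to ARR9, ARR15, ARR16 and ARR17. They were chosen by locus identifier, and all 10 were found among the 22937 loci of the deposited table. The samples were root tips cut from primary roots of seedlings, in 2 groups of 1 library each. The first group was atphb3, a mutant named for PROHIBITIN 3 (PHB3), whose allele the labels do not describe, and the second was the accession Col. Seeds of both were kept for 3 days at 4 °C on Murashige and Skoog medium and seedlings were grown without a further treatment at 20 °C in 16 h of light and 8 h of dark. With 1 library in each group there was no replicate check, no test between genotypes was possible, and each interval below covers counting error alone.

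Cytokinin is perceived by membrane histidine kinases, which pass a phosphate through phosphotransfer proteins to the type-B response regulators, the transcription factors of the pathway. Type-A response regulators have the phosphate-receiving domain without the DNA-binding part. Most are switched on quickly by cytokinin through the type-B factors and then dampen the same signal, so their mRNA is widely used as a readout of cytokinin response. In the root tip, cytokinin promotes the passage of meristem cells into elongation and shapes the vascular tissue.

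The table assigned 7384348 reads to transcripts in the library labelled atphb3 and 7451022 in Col. PHB3 itself had 863 reads in the library labelled atphb3 and 915 in Col, a ratio of 0.952 (95% interval 0.866 to 1.05). Its mRNA level thus cannot check the label, and each direction below is that of the library labelled atphb3. All 7 root tip meristem markers examined, among them WOX5, PLT1 and SHR, were measured, with 82 to 1005 reads in the library labelled atphb3 and 24 to 501 in Col. Of 10 shoot markers, 7 could be analysed and 3 were measured. KNAT1 had 149 reads in the library labelled atphb3 and 280 in Col, LHCB2.1 had 68 and 148, and RBCS1A, a small subunit of Rubisco, had 19 and 179. The shoot meristem gene STM had 1 read in the library labelled atphb3 and 0 in Col, and the stomatal gene FAMA had 0 and 4 in that order of libraries.

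Upstream sequence is shown first for ARR7, ARR5 and ARR6, which had the lowest ratios among the genes with 50 or more reads in either library, and for ARR3, the gene of that set with a ratio above 1, since type-A promoters are known targets of the type-B factors. Each line gives the 300 bases before the RefSeq gene start in assembly TAIR10.1, 5′ to 3′ on the gene's strand. Capitals mark, on either strand, the letters AGAT followed by any base but G and then by C or T, the form of DNA word that type-B factors bind. AGATCT reads the same on both strands and was counted once, and overlapping words were each counted. The windows are chr1:6579315-6579614 for ARR7, chr3:17760951-17761250 for ARR5, chr5:25254319-25254618 for ARR6 and chr1:22067234-22067533 for ARR3, all on the minus strand.
ARR7: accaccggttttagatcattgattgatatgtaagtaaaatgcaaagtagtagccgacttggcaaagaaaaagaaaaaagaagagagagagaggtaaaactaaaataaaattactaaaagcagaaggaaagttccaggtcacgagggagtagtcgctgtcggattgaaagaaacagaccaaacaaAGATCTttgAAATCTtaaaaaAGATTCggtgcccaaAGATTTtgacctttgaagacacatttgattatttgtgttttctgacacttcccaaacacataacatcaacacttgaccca
ARR5: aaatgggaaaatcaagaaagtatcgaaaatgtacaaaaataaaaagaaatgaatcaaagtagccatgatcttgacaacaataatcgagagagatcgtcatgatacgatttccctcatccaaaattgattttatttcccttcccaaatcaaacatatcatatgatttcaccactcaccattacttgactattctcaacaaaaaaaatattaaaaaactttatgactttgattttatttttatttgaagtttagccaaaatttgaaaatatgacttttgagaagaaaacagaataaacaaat
ARR6: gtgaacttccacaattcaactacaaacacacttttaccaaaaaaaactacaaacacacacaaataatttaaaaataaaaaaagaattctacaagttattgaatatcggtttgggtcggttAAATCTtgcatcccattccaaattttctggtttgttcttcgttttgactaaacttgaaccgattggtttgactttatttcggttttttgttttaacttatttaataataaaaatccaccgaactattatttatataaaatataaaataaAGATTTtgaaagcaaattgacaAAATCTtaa
ARR3: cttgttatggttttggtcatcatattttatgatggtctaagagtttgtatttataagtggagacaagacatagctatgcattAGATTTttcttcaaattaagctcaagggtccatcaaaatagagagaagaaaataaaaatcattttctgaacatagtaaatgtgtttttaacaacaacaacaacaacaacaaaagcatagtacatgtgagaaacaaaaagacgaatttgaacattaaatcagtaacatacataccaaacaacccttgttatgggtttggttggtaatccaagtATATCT

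ARR7 and ARR16 had 4 matches each in this window, and 6.13% of 27437 protein-coding promoters had as many or more. ARR6, ARR9 and ARR15 had 3 matches, ARR3 had 2 and ARR17 had 1. ARR4, ARR5 and ARR8 had 0. In all, 7 of the 10 windows held at least 1 match, and so did 73.3% of all promoters. A match is a description of the letters in this window and does not show binding.

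Type-A mRNA as a whole was lower in the library labelled atphb3. The 10 genes together had 2321 reads in the library labelled atphb3 and 5483 in Col, or 314 counts per 1000000 reads of the column (CPM) against 736, a ratio of 0.427 (0.407 to 0.448). A locus counts as measured with 50 or more reads in either library, and 7 of the 10 genes did. Of these 7, ARR7, ARR5, ARR6 and ARR4 were at least 2-fold lower in the library labelled atphb3, where 10.1% of 12931 measured loci were lower by that much. None of the 7 was at least 2-fold higher, against 9.74% of measured loci. ARR8 and ARR9 were lower by less than 2-fold and ARR3 was higher by less than 2-fold. The median log2 ratio of the 7, taken after adding 0.5 reads to each count, was -1.02, and that of all measured loci was 0.08. The genes ranged from -4.29 to 0.75. In bulk RNA of this kind, fewer cells of a type and less RNA per cell cannot be told apart.

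**Figure D1:**
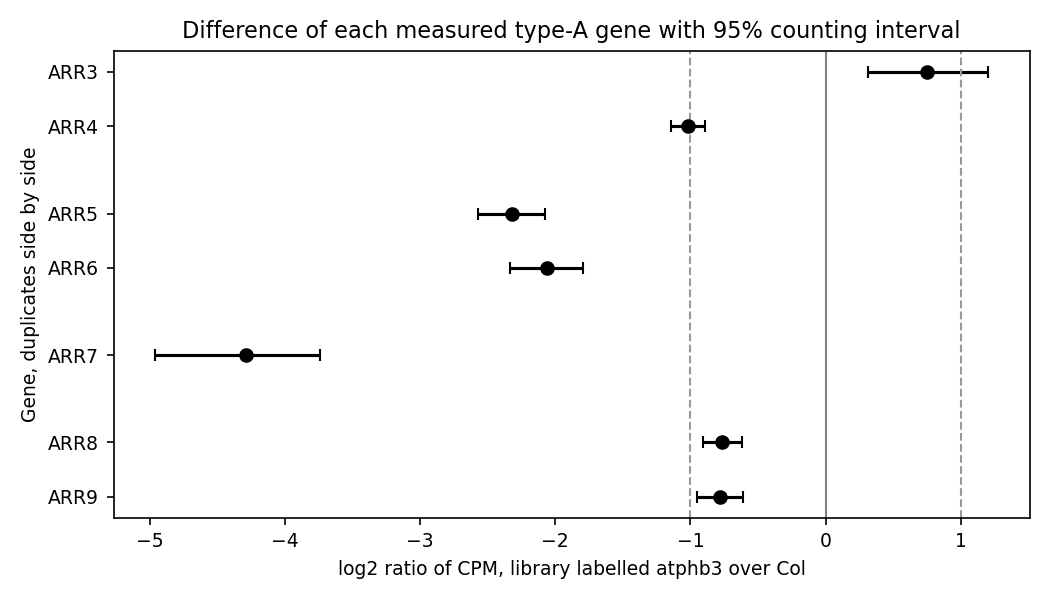
The log2 ratio of CPM, library labelled atphb3 over Col, for the 7 measured type-A genes, with bars for the 95% counting interval and dashed lines at 2-fold. ARR7 lies farthest below 0, ARR5 and ARR6 lie close together, ARR8 and ARR9 have almost the same value, and ARR3 lies above 0.

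ARR7 showed the greatest difference of the 7. ARR7 (AT1G19050, chromosome 1, 6577833 to 6579178, minus strand) is a cytokinin-induced regulator known from the shoot meristem, where WUSCHEL represses it, and from the founding of the embryonic root. It had 25 reads in the library labelled atphb3 and 503 in Col, or 3.39 CPM against 67.5. It was 19.9-fold lower in the library labelled atphb3 (13.4 to 31.1), and 0.410% of measured loci had a lower log2 ratio. It was measured through Col alone, so it entered because it was high there. ARR15 (AT1G74890, chromosome 1, 28131590 to 28132710, minus strand), the duplicate of ARR7, had 1 read in the library labelled atphb3 and 6 in Col. Its ratio of 0.168 had a counting interval of 0.00366 to 1.39, which spans 1, so no difference was detectable at this depth.

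ARR5 and ARR6, a duplicate pair of primary cytokinin response genes, were both more than 4-fold lower. ARR5 (AT3G48100, chromosome 3, 17758427 to 17760874, minus strand), whose promoter drives a common cytokinin reporter, had 165 reads in the library labelled atphb3 and 832 in Col, or 22.3 CPM against 112. The log2 ratio of ARR5 was -2.32, with an interval of -2.57 to -2.08. ARR6 (AT5G62920, chromosome 5, 25252386 to 25254212, minus strand) had 144 reads in the library labelled atphb3 and 607 in Col, or 19.5 CPM against 81.5. The log2 ratio of ARR6 was -2.06 (-2.33 to -1.80), a 4.18-fold difference. The 2 genes differed by similar amounts: the log2 ratio of ARR5 minus that of ARR6 was -0.26, with an interval of -0.61 to 0.10. At the 4-fold limit, ARR7, ARR5 and ARR6 made 3 of the 7 measured genes, where 2.99% of measured loci were lower by that much.

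ARR4 was the type-A gene with the most reads in both libraries and lay at the edge of the 2-fold limit. ARR4 (AT1G10470, chromosome 1, 3442327 to 3443957, minus strand), which also binds the red light receptor phytochrome B, had 786 reads in the library labelled atphb3 and 1604 in Col, or 106 CPM against 215. Its difference was 2.02-fold, lower in the library labelled atphb3, with an interval of 1.86 to 2.21 that includes 2. Its duplicate ARR3 went the other way. ARR3 (AT1G59940, chromosome 1, 22065617 to 22066973, minus strand) had 117 reads in the library labelled atphb3 and 70 in Col, or 15.8 CPM against 9.39. ARR3 was 1.69-fold higher in the library labelled atphb3 (1.24 to 2.30). The log2 ratio of ARR3 minus that of ARR4 was 1.77, with an interval of 1.32 to 2.21, so the duplicates differed from each other by more than counting error in these libraries.

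ARR8 and ARR9, type-A genes that respond more weakly to cytokinin than ARR5 to ARR7, were lower by similar factors. ARR8 (AT2G41310, chromosome 2, 17221933 to 17224427, plus strand) had 634 reads in the library labelled atphb3 and 1086 in Col, or 85.9 CPM against 146, a 1.70-fold difference (1.54 to 1.88). ARR9 (AT3G57040, chromosome 3, 21109614 to 21111432, plus strand) had 446 reads in the library labelled atphb3 and 772 in Col, or 60.4 CPM against 104, a 1.72-fold difference (1.52 to 1.93). Their log2 ratios differed by 0.01 (-0.20 to 0.23). Both were within the 2-fold limit, and 14.1% and 13.8% of measured loci had a log2 ratio below that of ARR8 and of ARR9.

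ARR16 and ARR17, a pair of short type-A regulators, gave almost no reads. ARR16 (AT2G40670, chromosome 2, 16970230 to 16971234, plus strand) had 3 reads in the library labelled atphb3 and 1 in Col. ARR17 (AT3G56380, chromosome 3, 20905480 to 20906368, plus strand) had 0 reads in the library labelled atphb3 and 2 in Col. Both lay at or under a floor of 3 counts in each library, which is 0.406 CPM in the library labelled atphb3 and 0.403 CPM in Col, so no fold is given. All 10 genes had a single listed transcript, and for ARR16 that was the transcript numbered 2.

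Set side by side per listed transcript length, genes that stood level in Col were spread out in the library labelled atphb3. The authors' RPKM is the read count per kilobase of transcript and per 1000000 reads of the column. Its lengths are those listed with the counts, and the RefSeq mRNAs differ from them unequally. ARR6 has 974 bases listed and 1459 in RefSeq, and ARR5 has 1374 and 1450. Levels of different genes, and whether they stand level, therefore depend on the lengths used, and the intervals cover counting error alone. In the library labelled atphb3, ARR4 had the highest level at 83.5 RPKM (77.7 to 89.5), followed by ARR8 at 47.1 (43.5 to 50.9) and ARR9 at 44.6 (40.6 to 48.9), whose intervals overlapped. ARR6, ARR5 and ARR3 came next in that library at 20.0, 16.3 and 15.1 RPKM with overlapping intervals, and ARR7 had 4.20 RPKM (2.71 to 6.19). In Col, ARR4 was also highest, at 169 RPKM (161 to 177). ARR7, ARR6, ARR5, ARR8 and ARR9 lay between 76.5 and 83.7 RPKM in Col, and the interval of each overlapped those of the other 4. ARR3 had 8.94 RPKM in Col (6.97 to 11.3), far below those 5 genes. By these values ARR7 stood seventh of 10 in the library labelled atphb3 and second in Col. ARR15, ARR16 and ARR17 were under 1.30 RPKM in both libraries.

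**Figure D2:**
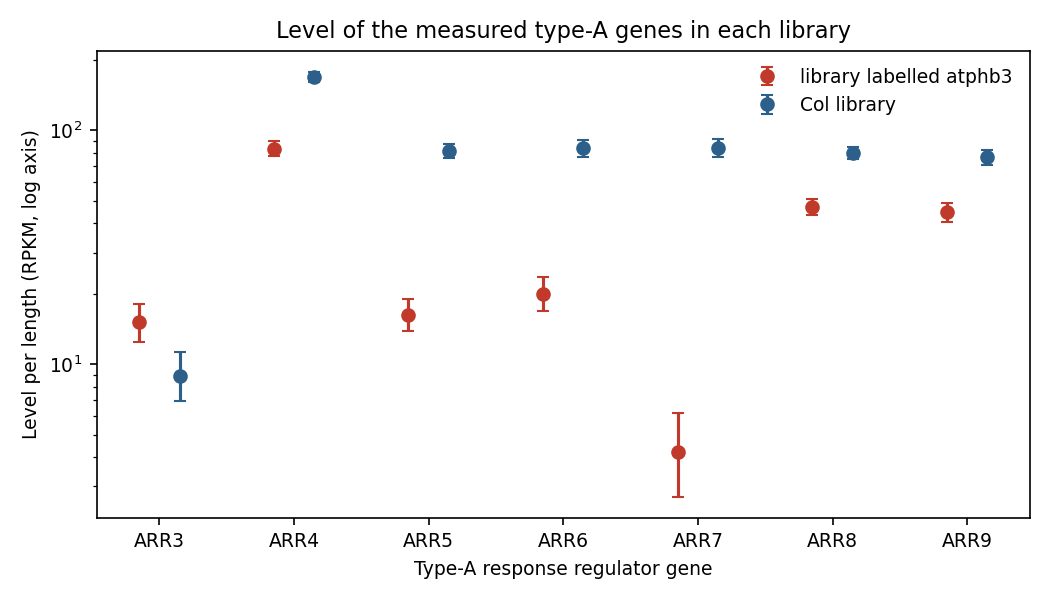
The level of each of the 7 measured type-A genes in RPKM on a log axis, with the library labelled atphb3 to the left of Col and bars for the 95% Poisson counting interval. By the listed transcript lengths, ARR5 to ARR9 share a level near 80 in Col, while in the library labelled atphb3 they lie between 4.20 and 47.1.

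The make-up of the type-A reads shifted accordingly. ARR7 made up 1.08% of the reads of the 10 genes in the library labelled atphb3 and 9.17% in Col. ARR5 and ARR6 made up 7.11% and 6.20% in the library labelled atphb3, against 15.2% and 11.1% in Col. ARR4, ARR8 and ARR9 made up 33.9%, 27.3% and 19.2% in the library labelled atphb3, against 29.3%, 19.8% and 14.1% in Col. ARR3 made up 5.04% in the library labelled atphb3 and 1.28% in Col.

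**Figure D3:**
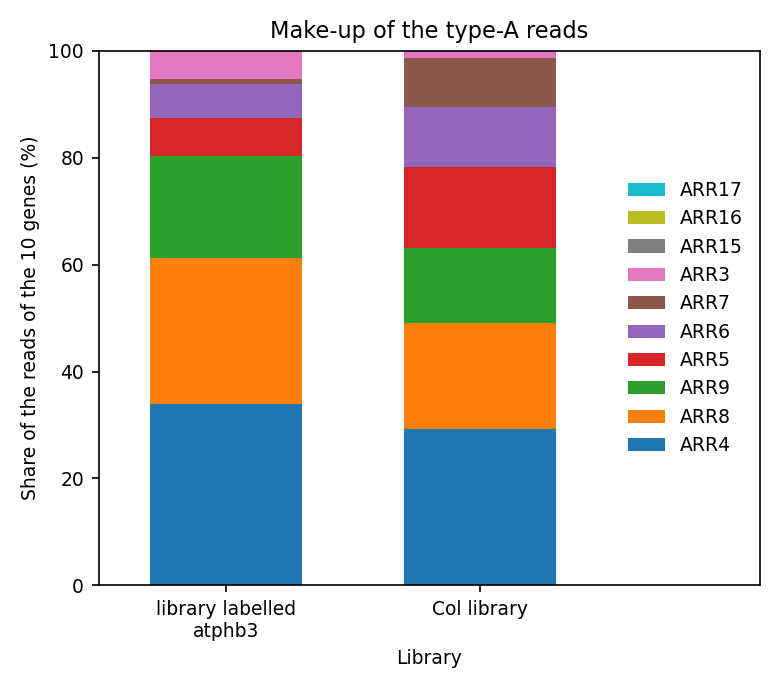
Stacked shares, in percent, of the reads of the 10 type-A genes taken by each gene in the library labelled atphb3 (left) and in Col (right). The block of ARR7 is 1.08% on the left and 9.17% on the right, and ARR15, ARR16 and ARR17 are too small to see.

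The duplicates are similar in sequence, which bears on how well reads of each can be told apart. In RefSeq coding sequences, the 5 duplicate pairs were 79.0% to 84.9% identical and the 40 other pairs 65.6% to 76.6%. No stretch of 50 bases was shared between the mRNAs of any pair of the 10 genes. At 25 bases, 28 overlapping stretches were shared by ARR3 and ARR4 and 33 by ARR8 and ARR9, and none by the other duplicate pairs. These are exact matches, and with the aligner not known they do not show how reads of duplicates were assigned. The RefSeq model of ARR6 overlaps AT5G62910 on the other strand, but the spans listed in the deposited table do not. RefSeq models of ARR8 and ARR9 also overlap a gene on the other strand, AT2G09250 and AT3G08825, which were not analysed here. AT5G62910 had 169 reads in the library labelled atphb3 and 229 in Col, a ratio of 0.745 (0.607 to 0.912).

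**Figure D4:**
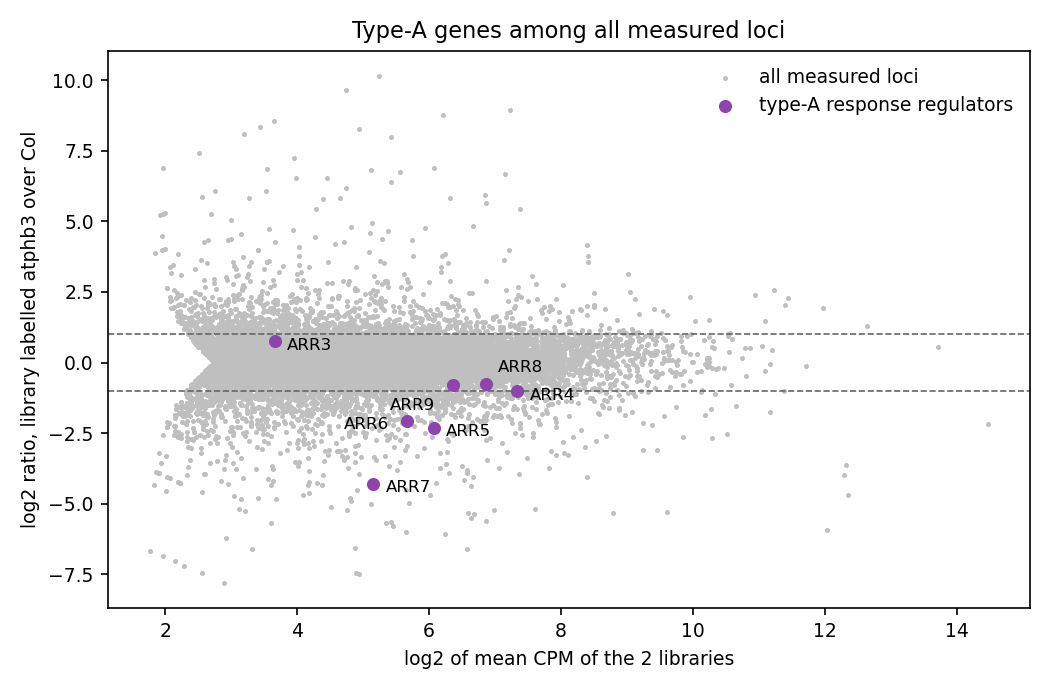
The log2 ratio, library labelled atphb3 over Col, against the log2 of the mean CPM of the 2 libraries, for all 12931 measured loci (grey) and the 7 measured type-A genes (purple, named), with dashed lines at 2-fold. ARR7 lies in the lower fringe of loci of its level, while ARR8 and ARR9 lie within the dashed lines.

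The type-A genes were among the better-read loci: 6 of the 7, all but ARR3, had over 400 reads in Col. Of 5003 loci with at least 400 reads in 1 library, 9.61% were at least 2-fold lower, close to the share over all measured loci. By the stricter limit that the whole interval lies beyond 2-fold, ARR7, ARR5 and ARR6 were lower in the library labelled atphb3, where 6.38% of measured loci were.

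Upstream of the type-A genes in the signalling chain, 1 of the 3 receptors was at least 2-fold lower, against 10.1% of all measured loci. The other 2 lay within 2-fold. The lower one was AHK4, the main receptor of the root, with 18 reads in the library labelled atphb3 and 54 in Col, 2.97-fold lower (1.72 to 5.39). AHK4 has several listed transcripts and was measured through Col alone. AHK3, a further receptor, had 1337 reads in the library labelled atphb3 and 2080 in Col, a log2 ratio of -0.62. Of 4 measured phosphotransfer proteins, all lay within 2-fold, with a median of -0.18. AHP1, which carries phosphate from receptors to regulators, had 773 reads in the library labelled atphb3 and 740 in Col.

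The type-B regulators had 5 measured members with a median log2 ratio of 0.10. Of these, 1 was lower by 2-fold or more and 0 were higher, against 10.1% and 9.74% of all measured loci. ARR11 was the lower gene, with 307 reads in the library labelled atphb3 and 818 in Col, a 2.64-fold difference (2.31 to 3.02). ARR1, ARR10 and ARR12, the type-B factors that carry most of the root's response, had log2 ratios of -0.32, 0.45 and 0.10. The intervals of ARR1 (-0.90 to 0.24) and ARR12 (-0.07 to 0.26) spanned 0. ARR1 has several listed transcripts and was measured through Col alone. The KMD F-box proteins, which mark type-B factors for breakdown, had 3 measured members with a median of -0.55. Among them, 1 was lower by 2-fold or more, against the same 10.1% of measured loci. KMD1 had 313 reads in the library labelled atphb3 and 1374 in Col, 4.35-fold lower (3.85 to 4.93). No type-C regulator was analysed here.

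The other cytokinin-regulated genes examined and the cytokinin response factors had median log2 ratios of opposite sign. SHY2, LBD3 and GH3.17 were the 3 measured genes of a short list of cytokinin-regulated genes, drawn up with earlier results of these data known. Each was lower by 2-fold or more, as were 10.1% of all measured loci. The median log2 ratio of the list was -2.95, or -2.07 with a minimum of 200 reads or with no filter. EXPA1, the fourth gene of that list, had 1 read in each library. LBD3, a transcription factor gene switched on by cytokinin, had 4 reads in the library labelled atphb3 and 53 in Col, a log2 ratio of -3.56 with an upper bound of -2.27, and was measured through Col alone. GH3.17, an enzyme that conjugates auxin, had 344 reads in the library labelled atphb3 and 796 in Col, 2.29-fold lower (2.02 to 2.61), over several listed transcripts. SHY2, a repressor of auxin response that type-B factors activate, had 85 reads in the library labelled atphb3 and 667 in Col. The cytokinin response factors belong to the AP2/ERF family. Their 6 measured members had a median of 0.78, and 3 were higher and 1 lower by 2-fold or more, where 9.74% and 10.1% of all measured loci were. CRF7, the lower one, had 36 reads in the library labelled atphb3 and 76 in Col and was measured through Col alone. CRF3, CRF5 and CRF4 were 2.38-fold (1.90 to 2.99), 2.27-fold (1.71 to 3.03) and 2.15-fold (1.70 to 2.74) higher in the library labelled atphb3.

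Genes that make, break down and move cytokinin had no common direction. The 8 measured genes of synthesis and activation had a median log2 ratio of -0.36, and 2 were lower and 1 higher by 2-fold or more, against the same 10.1% and 9.74% of all measured loci. That median was -1.53 with a minimum of 200 reads and 0.24 with no filter. CYP735A2, the hydroxylase that makes trans-zeatin and is itself induced by cytokinin, had 78 reads in the library labelled atphb3 and 532 in Col, 6.76-fold lower (5.32 to 8.69). LOG1, which releases active cytokinin, was 2.59-fold lower (1.96 to 3.46). IPT7, which starts cytokinin synthesis, was 5.42-fold higher (3.30 to 9.36) and was measured through the library labelled atphb3 alone. The 4 measured genes of breakdown and conjugation had a median of -0.24, and 1 was lower by 2-fold or more. CKX6, a cytokinin oxidase, was the lower one, with 24 reads in the library labelled atphb3 and 103 in Col, and was measured through Col alone. All 3 measured transport genes lay within 2-fold, with a median of -0.44. ABCG14, which loads cytokinin for the shoot, had 1292 reads in the library labelled atphb3 and 2046 in Col. Across the 10 cytokinin lists other than the type-A list, 10 of 39 measured genes were lower by 2-fold or more and 4 were higher. Of all measured loci, 10.1% were lower and 9.74% higher by that much. Among the lower genes, AHK4, CRF7, LBD3 and CKX6 were measured through Col alone. IPT7, among the higher ones, was measured through the library labelled atphb3 alone. The type-C list held no analysed gene. The lists were drawn up with earlier results of these data known, so the counts describe these lists only.

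**Figure D5:**
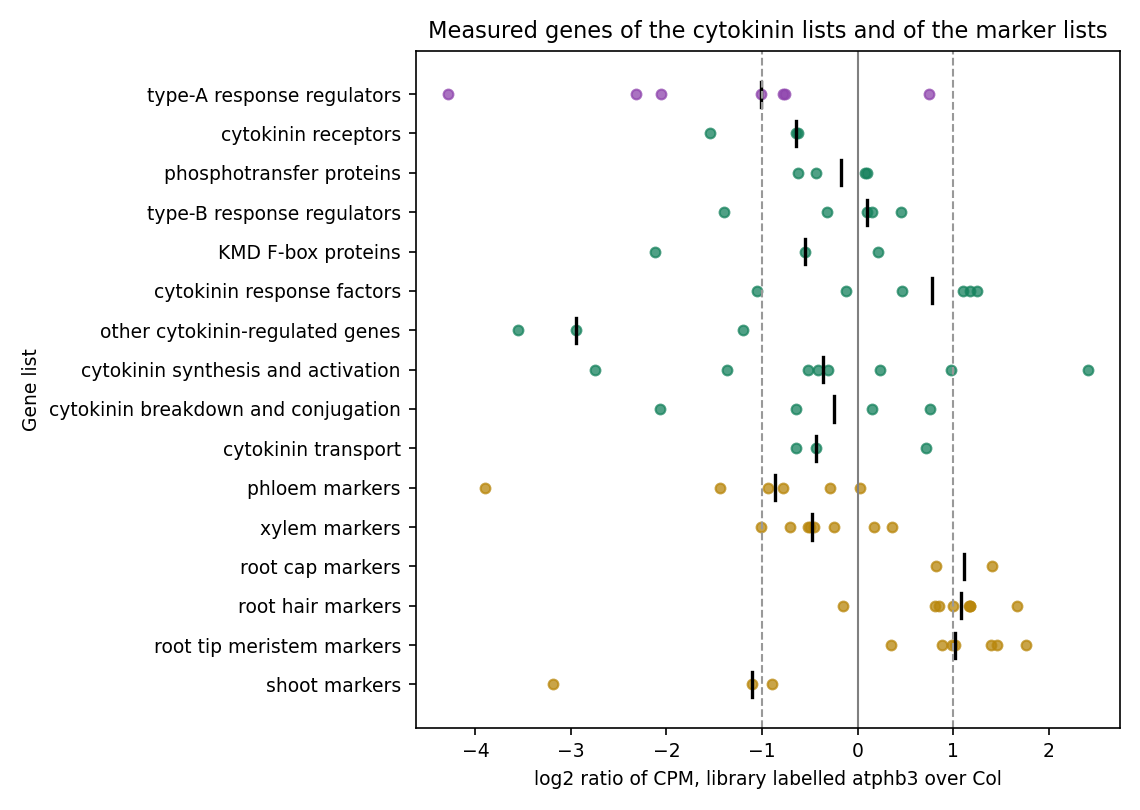
The log2 ratio of CPM, library labelled atphb3 over Col, of each measured gene of the type-A list (purple), of the other cytokinin lists (green) and of the tissue marker lists (ochre), with a black bar at each list's median and dashed lines at 2-fold. The type-A median is -1.02, that of the cytokinin response factors is 0.78, and the medians of the phloem and meristem markers lie on opposite sides of 0.

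Tissue markers differed between the same libraries, and their counts past 2-fold are to be read against 10.1% of all measured loci lower and 9.74% higher. The 12 phloem markers summed to 246 CPM in the library labelled atphb3 and 529 CPM in Col, and the median log2 ratio of the 6 measured ones was -0.86, with 2 lower by 2-fold or more. SUC2, the sucrose carrier of companion cells, had 73 reads in the library labelled atphb3 and 1107 in Col. SEOR1, of sieve elements, had 305 and 833. The other phloem markers were not uniform: 5 of the 12 had a log2 ratio above 0, from CALS7 at 0.02 to NAC045 at 0.64. Of these 5 only CALS7 was measured, and the counting interval of each ratio spanned 1. Without SUC2, left out after its value was seen, the sum was 236 CPM in the library labelled atphb3 and 381 CPM in Col. The 9 xylem markers summed to 499 CPM in the library labelled atphb3 and 790 CPM in Col, with 1 of 8 measured, XCP2, at least 2-fold lower. The 7 meristem markers summed to 341 CPM in the library labelled atphb3 and 178 CPM in Col, and 4 were at least 2-fold higher, of which WOX5 was measured through the library labelled atphb3 alone. The 8 root hair markers summed to 919 CPM in the library labelled atphb3 and 452 CPM in Col, and 4 were at least 2-fold higher. The 5 root cap markers summed to 37.4 and 19.1 CPM in the same order, with 1 of 2 measured, BRN2, at least 2-fold higher and measured through the library labelled atphb3 alone. The 7 shoot markers analysed summed to 32.4 CPM in the library labelled atphb3 and 84.4 CPM in Col. Of the 3 measured, 2 were lower by 2-fold or more, of which RBCS1A was measured through Col alone. The part of tissue make-up in the type-A values was not tested.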

How the data were processed

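Per the labels' protocols, root tip RNA was reverse transcribed from random primers for Illumina sequencing, and another sentence there also names shoots. The deposited table holds, per the file headers, a read count and an RPKM value per transcript and library, and the authors' log2 ratio, p-value and adjusted value. The deposited p-value and log2 ratio compare 1 library with 1 and were not used. The aligner, counter and genome build are not given in the sources used here. All nonzero deposited RPKM values equalled count per kilobase and per 1000000 reads of the column within 0.1%, and a count of 0 was listed as 0.01.

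Counts of 26425 transcripts were summed to 22937 loci and scaled to CPM. Ratios are of CPM, with 95% intervals by Clopper and Pearson's method given the reads of both libraries, and levels have exact Poisson intervals. Differences between duplicates have Wald intervals. Reads carried no molecular identifiers. No strand-marking kit is named, so reads of genes overlapping on opposite strands could not be told apart. Of 3069 loci with several transcripts, the median was 17 reads in Col, against 81.5 for the rest, which leaves their levels uncertain.

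The members, the 17 other lists and the alternatives were chosen with earlier results of these data known. Besides the 10 members and PHB3, each list names up to 3 measured genes at least 2-fold apart, by the interval bound nearest 0, or otherwise its most expressed gene. AHK3, ARR1, ARR10, ARR12, CRF7, EXPA1, CALS7, NAC045, SHR, KNAT1, STM, FAMA and AT5G62910 were added after their values were seen. Of 139 listed loci, 119 were analysed, and RefSeq (TAIR10.1) held the symbol or identifier of all 119. The loci not analysed were not looked up. Positions are those of the table, and all 10 member spans lay inside the RefSeq gene on the same strand. Scaling alternatives used TMM (edgeR 4.0.16) and median of ratios (DESeq2 1.42.0). Calculations were tested on simulated counts. Python 3.11.15, numpy 2.4.6, pandas 2.3.3, scipy 1.17.1, Biopython 1.88 and R 4.3.3 were used.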

Additional observations from a re-analysis of the deposited data

How the results depend on the processing

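The log2 ratios of the 7 measured type-A genes and ARR15 kept their sign and stayed inside their counting intervals under TMM, median of ratios and nuclear-total scaling, the authors' RPKM, a pseudocount of 2 reads, the most read transcript alone, and a total without the 10 most abundant loci, an alternative chosen after seeing the data. ARR7 ranged from -4.36 to -4.21 and ARR4 from -1.09 to -1.01. The count of genes at least 2-fold lower stayed at 4 under every scaling and pseudocount run. It was 3 at a 4-fold limit or with the interval wholly beyond 2-fold. A 1.5-fold limit gave 6, adding ARR8 and ARR9. No filter on reads also gave 6, but by adding ARR15 and ARR17, whose few reads gave intervals that span a ratio of 1. The count at least 2-fold higher was 1 at the 1.5-fold limit (ARR3) and 1 with no filter (ARR16). The median of -1.02 became -1.54 without a filter and also with a minimum of 200 reads, and the mean was -1.50. The log2 ratio of the summed type-A level, -1.23, became -1.34 in the authors' RPKM and -1.30 without the 10 most abundant loci. With no filter, the medians of phosphotransfer proteins, type-B regulators and synthesis genes changed sign to 0.044, -0.11 and 0.24. The mean of type-B regulators was -0.20, and the median of breakdown and conjugation genes was 0.054 with a minimum of 200 reads. No paired analysis was possible because each group held 1 library. Depth limits ARR15, ARR16 and ARR17, which had at most 6 reads.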
